A study of Mus musculus with 10 samples.

Results

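The enzymes that write, copy and remove DNA methylation were followed in fetal mouse testes cultured with an inhibitor of glycogen breakdown. The 8 genes, Dnmt1, Uhrf1, Dnmt3a, Dnmt3b, Dnmt3l, Tet1, Tet2 and Tet3, were taken by their symbols from the 24470 gene entries of the count table. All 8 were present and 7 passed the filter on low counts. Testes of C57BL/6 embryos at E12.5 were used, with the mesonephros attached during culture and dissected away before RNA was taken. From each of 5 embryos (M1 to M5), 1 gonad was cultured for 48 h with 75 µM of the glycogen phosphorylase inhibitor CP 316819 (GPI) and the other with the solvent DMSO (vehicle). Each gonad gave 1 RNA-seq library, so that 5 GPI libraries were compared with 5 vehicle libraries. The vehicle libraries held between 10203679 and 15590223 counts and the GPI libraries between 11025409 and 15635322. Levels are given as normalized counts, that is, counts scaled by the TMM method to the mean library, as mean ± SD over 5 gonads.

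Cytosine methylation at CpG dinucleotides is copied onto new DNA strands by DNMT1, which UHRF1 brings to hemimethylated sites behind the replication fork. New methylation is set by DNMT3A and DNMT3B, helped in germ cells by DNMT3L, which has no catalytic activity of its own, while TET enzymes oxidize methylcytosine and so open the way to its removal. Fetal germ cells lose most of their methylation before and around the time they settle in the gonad, and male germ cells gain it anew later in fetal life.

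The levels of the 8 genes spanned a wide range in the cultured testes. Levels were compared between genes as normalized counts per kb of annotated exon. With vehicle, Dnmt3a stood at 588 ± 50.6 per kb and Dnmt1 at 573 ± 26.1 per kb, and their ranges over the 5 gonads overlapped. Tet2 followed at 301 ± 27.4 per kb, above Tet1, with a mean of 224 per kb, and Tet3 at 181 ± 9.21 per kb. Tet1 and Tet3 overlapped each other, while the lowest Tet2 gonad (261 per kb) lay above the highest Tet1 gonad (254 per kb). Uhrf1 and Dnmt3b formed the low end, at 58.5 ± 1.63 and 41.8 ± 8.48 per kb, and did not overlap. With GPI the Dnmt3a gonads (670 to 816 per kb) no longer overlapped the Dnmt1 gonads (475 to 569 per kb). Tet3 (191 ± 18.8 per kb) and Tet1 (182 ± 28.5 per kb) overlapped again, and the GPI means of Uhrf1 and Dnmt3b were 47.9 ± 7.71 and 33.4 ± 3.13 per kb. Dnmt3l was at the limit of detection in both groups.

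**Figure D1:**
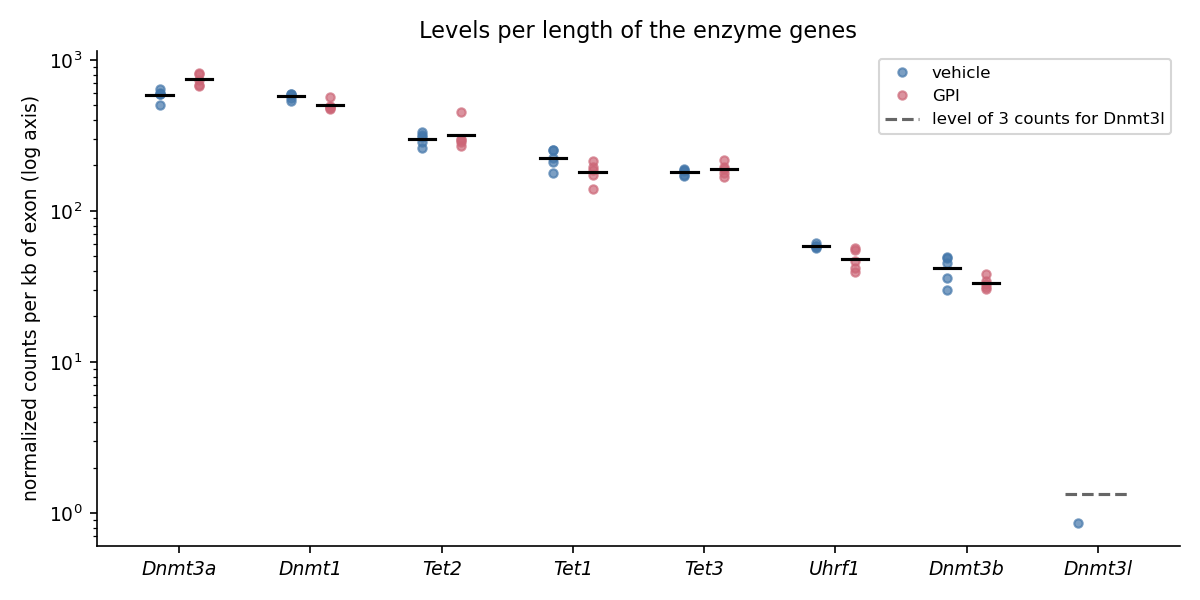
Normalized counts per kb of annotated exon (log axis) for the 8 genes, with 1 point per gonad, bars at the means, vehicle in blue and GPI in red. Dnmt3a and Dnmt1 share the top with vehicle, and Dnmt3l shows 1 point, at 0.856 per kb in the vehicle gonad of M5, under the dashed line at 1.34 per kb to which exactly 3 counts convert in the library where a count weighs most; its 9 other libraries were at 0 and cannot be drawn on this axis.

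Of the 8 genes, 1 was called higher with GPI (Dnmt3a), 1 was called lower (Tet1), 5 were not called and 1 (Dnmt3l) was not tested. Calls came from edgeR's quasi-likelihood test at an FDR of 0.05 over 13941 genes, of which 3198 (22.9%) were called, 1544 (11.1%) as higher and 1654 (11.9%) as lower. The number called higher was 969 without mouse M3 and 1024 without M4. The share of called members was therefore near that of all genes. The median of the 7 tested members was -0.19 on the log2 scale, beside 0.02 over all tested genes. Their absolute log2 fold changes had a median of 0.30, beside 0.22 over all tested genes and 0.69 over those called. The summed level of the 8 genes was 17780 ± 443 with vehicle and 18456 ± 929 with GPI.

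**Figure D2:**
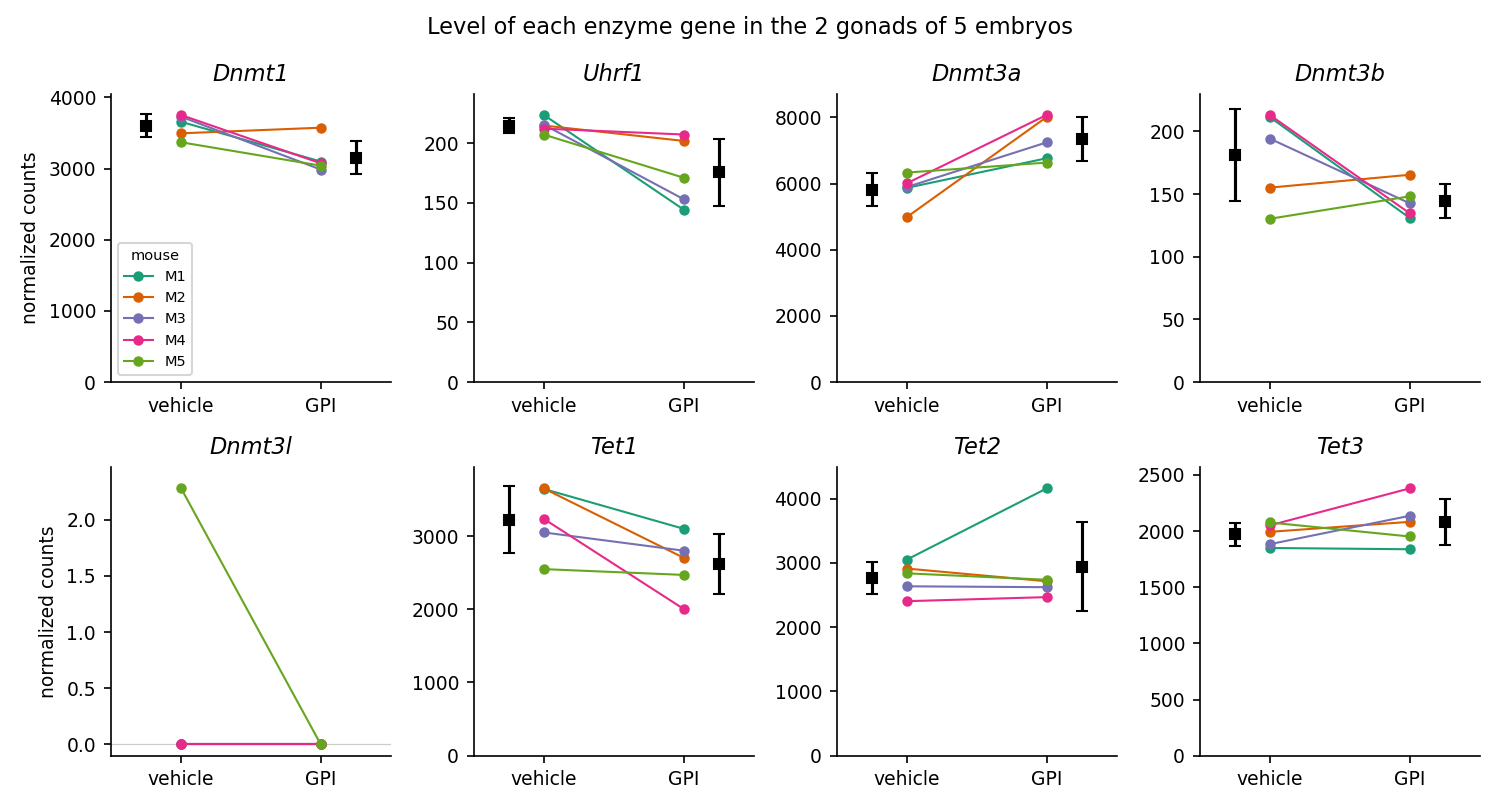
Normalized counts of the 8 genes (vertical axes from 0, except for a small margin under Dnmt3l) in the vehicle and GPI gonads, with a line for each of the 5 mice and black squares with bars for mean ± SD, left out for Dnmt3l. The 5 GPI gonads lie above the 5 vehicle gonads for Dnmt3a, all 5 lines fall for Tet1 and Uhrf1, and Dnmt3l has counts in 1 of 10 libraries.

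Among the de novo methyltransferases, Dnmt3a rose in all 5 mice. Dnmt3a (Entrez 13435, chr12:3806980-3914443 on the plus strand of mm10) is the main enzyme for new methylation in somatic tissues and in the male germ line. Its vehicle gonads held 5870.9 normalized counts in M1, 4984.3 in M2, 5894.9 in M3, 6006.4 in M4 and 6333.4 in M5. Its GPI gonads held 6766.8 in M1, 8013.9 in M2, 7246.6 in M3, 8077 in M4 and 6635.7 in M5. The lowest GPI gonad, that of M5, lay above the highest vehicle gonad, which was also that of M5, so that the groups did not overlap. Its mean went from 5818 ± 501 to 7348 ± 676, a log2 fold change of 0.34 (SE 0.083, 95% interval 0.16 to 0.52), or 26.2% more (edgeR adjusted p = 0.00954, n = 5 per group). By mouse the log2 ratio ran from 0.07 in M5 to 0.68 in M2. The gene overlaps Dnmt3aos on the other strand, and the libraries do not tell strands apart.

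The promoters of Dnmt3a and Dnmt3l are shown side by side because these partners in new methylation stood at opposite ends of the range of levels. The last 120 bases before each gene's start in the count table were read from RefSeq promoters (GRCm38.p6, plus strand), with every CpG in capitals, at chr12:3806860-3806979 for Dnmt3a and chr10:78042167-78042286 for Dnmt3l. Neither stretch overlaps an annotated exon, and that of Dnmt3l lies within Aire, which is on the other strand.
Dnmt3a: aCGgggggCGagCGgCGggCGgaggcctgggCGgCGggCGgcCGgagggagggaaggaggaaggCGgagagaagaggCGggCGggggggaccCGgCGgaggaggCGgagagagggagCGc
Dnmt3l: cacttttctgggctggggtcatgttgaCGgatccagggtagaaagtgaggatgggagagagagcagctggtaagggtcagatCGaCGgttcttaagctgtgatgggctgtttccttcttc
The Dnmt3a stretch holds 16 CpGs and the Dnmt3l stretch 3. Over the 250 bases before the same starts, Dnmt3a had 38 CpGs and Dnmt3l 5, beside a median of 6 over 32851 promoter windows of that length. Tet2 had the most of the 15 windows of the 8 genes, with 51 CpGs.

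Dnmt3b (Entrez 13436, chr2:153649449-153687730, plus strand), the other de novo enzyme, ranged from 130 to 213 normalized counts with vehicle and from 131 to 165 with GPI. The GPI range lay inside the vehicle range, and the gene was lower in 3 of 5 mice and higher in M2 and M5. Its log2 fold change of -0.30 (SE 0.17, 95% interval -0.66 to 0.05) did not pass the test (edgeR adjusted p = 0.22).

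Dnmt3l (Entrez 54427, chr10:78042287-78063622, plus strand), the germ-line cofactor, had 3 counts in the vehicle gonad of M5 and 0 in the 9 other libraries. The gene overlaps Aire on the other strand, so these 3 counts cannot be assigned to Dnmt3l with certainty. They have a 95% Poisson interval of 0.619 to 8.77, and a count of 0 allows up to 3 counts, or between 0.192 and 0.294 CPM (counts relative to the library total) across these libraries. Each of the 7 other genes stood at 30.1 normalized counts per kb or more in every library, whereas exactly 3 counts of Dnmt3l convert to between 0.856 per kb in the vehicle gonad of M5 and 1.34 per kb in the library where a count weighs most. A difference in Dnmt3l between GPI and vehicle was therefore not detectable at this depth. Its contrast with the general enzymes rests on the levels alone, without a fold change.

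The gonads held germ cell transcripts when Dnmt3l was not detected. The 20 germ cell markers summed to 1912.3, 3320.9, 2240, 2916.5 and 1429.3 normalized counts in the vehicle gonads of M1 to M5. In the GPI gonads the sums were 508, 487, 319, 204 and 425. The groups did not overlap, and M5, whose vehicle gonad held the 3 Dnmt3l counts, had the lowest vehicle sum. Of the markers, 14 were tested, 12 were called lower and 2 (Dnd1 and Sycp3) were not called, with a median log2 fold change of -3.14. Sall4, Mael and Tex19.1 held at most 5 counts in any GPI library and passed the filter through their vehicle counts, so that their fold changes are not exact. With at least 10 counts required in every library, fewer markers were tested and 3 were called lower. The most abundant with vehicle was Dazl, an RNA-binding protein of germ cells, which went from 580 ± 272 to 25.1 ± 23.1 (log2 fold change -4.62, edgeR adjusted p = 5.6e-07). Its GPI libraries held between 4 and 59 counts, so that this fold change is not exact either. With GPI the most abundant was Sycp3 (139 ± 39.2 of a mean sum of 389), whose gene span overlaps that of Chpt1 on the other strand. Whether their exons overlap was not examined, so a share of Chpt1 in its counts cannot be judged. Ddx4, a germ cell helicase, fell by 2.72 on the log2 scale, and none of the 20 markers was at 0 in all 10 libraries. In RNA of whole gonads, fewer cells of a type and less RNA per cell cannot be told apart.

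The maintenance pair Dnmt1 and Uhrf1 was lower with GPI in most mice, without passing the test. Dnmt1 (Entrez 13433, chr9:20907206-20959888, minus strand) held 3658.5 normalized counts in M1, 3495.1 in M2, 3730.8 in M3, 3754.2 in M4 and 3370.5 in M5 with vehicle. With GPI it held 3099.1 in M1, 3574.4 in M2, 2986.7 in M3, 3074.2 in M4 and 3041.1 in M5. Only the GPI gonad of M2 reached into the vehicle range, and M2 was the mouse in which Dnmt1 was not lower. The mean went from 3601.8 ± 164 to 3155.1 ± 238, a log2 fold change of -0.19 (SE 0.071, 95% interval -0.35 to -0.04; edgeR adjusted p = 0.0687). Dnmt1 passed the threshold without mouse M2 (log2 fold change -0.25, adjusted p = 0.0179), with scaling by total counts alone (-0.24, adjusted p = 0.0227) and with no replicate block (-0.19, adjusted p = 0.0497). Over its 12 alternatives the adjusted p of Dnmt1 ran from 0.0179 to 0.217.

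Uhrf1 (Entrez 18140, chr17:56303337-56323486, plus strand) held 224, 215, 216, 212 and 207 normalized counts in the vehicle gonads of M1 to M5. In the GPI gonads it held 144, 202, 153, 207 and 171. The vehicle gonads lay close together, while the GPI gonads spread from M1 at the low end to M4, which just reached the lowest vehicle gonad. Uhrf1 was lower in 5 of 5 mice, with a log2 fold change of -0.30 (SE 0.13, 95% interval -0.59 to -0.01), and did not pass the test (edgeR adjusted p = 0.13).

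Since both proteins act at replication, their change was set beside that of 17 S phase genes in the same mice. With edgeR, none of the 17 was called (0 higher, 0 lower; 2 and 1 at an unadjusted p under 0.05), and DESeq2 and limma-voom also called 0. With no replicate block, and with scaling by total counts alone, edgeR called 1 lower. The S phase gene with the most counts, the helicase subunit Mcm6, was 2071.6 ± 131 with vehicle and 1896.1 ± 199 with GPI. The log2 ratio of the summed S phase genes was -0.03 ± 0.15 over the 5 mice. The log2 ratio of Dnmt1 minus theirs was -0.04, -0.04, -0.22, -0.20 and -0.32 in M1 to M5. Its mean was -0.16 ± 0.12 (n = 5 mice, below 0 in 5 of 5; exact two-sided sign-flip permutation p = 0.0625, the smallest that 5 mice allow). For Uhrf1 the same difference was -0.27 ± 0.22, below 0 in 4 of 5 mice and 0.05 in M4 (exact permutation p = 0.125). After adjustment over these 2 comparisons both had an exact permutation p of 0.125, and 0.05 could not be reached.

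**Figure D3:**
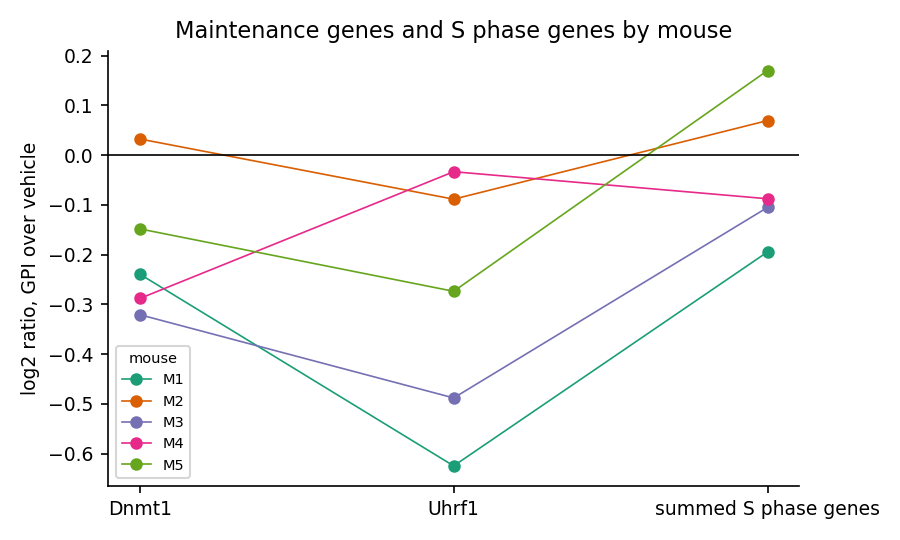
Log2 ratio of GPI over vehicle (vertical axis) for Dnmt1, Uhrf1 and the summed S phase genes, with 1 point per mouse joined by a line. Dnmt1 lies below the S phase genes in all 5 mice, and Uhrf1 in 4 of 5, the exception being M4.

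The G2/M genes gave 1 call in 12, beside 11.9% of all tested genes called lower, and their median was -0.14. The call was Mki67, a marker of cycling cells, which fell by 0.40 on the log2 scale (edgeR adjusted p = 0.00142). The 15 promoter windows of the 8 genes were searched on both strands for TTTCGCGC and TTTGGCGC, motifs of the E2F type known from genes of S phase. Only Dnmt1 and Uhrf1 held a match. One of the 3 Dnmt1 windows and one of the 2 Uhrf1 windows held TTTCGCGC, 219 and 185 bases before the start, beside 0.26% of the 32851 windows. The matching Dnmt1 window held 26 CpGs and the Uhrf1 window 30, more than 90.4% and 94.1% of all windows. TTTCGCGC itself contains CpGs, and its share among windows of like CpG content was not computed. That Dnmt1 window (chr9:20952624-20952873) lies inside Dnmt1, and its match falls in an annotated untranslated region. Either motif was held by 0.65% of the windows and by 2 of the 14 S phase genes that had a window. The Uhrf1 match, with the motif in capitals, lies at chr17:56304108-56304167 (GRCm38.p6, plus strand), inside Uhrf1 and outside its annotated exons.
Uhrf1: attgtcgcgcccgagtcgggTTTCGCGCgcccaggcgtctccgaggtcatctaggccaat
These matches are letters in a window, not measured sites.

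Among the TET enzymes, Tet1 fell and the others did not pass the test. Tet1 (Entrez 52463, chr10:62804570-62880014, minus strand), which is known from pluripotent and germ cells, held 3645.2 normalized counts in M1, 3652.6 in M2, 3050.7 in M3, 3237.3 in M4 and 2549.2 in M5 with vehicle. With GPI it held 3100.2 in M1, 2703.7 in M2, 2801.3 in M3, 2004.2 in M4 and 2470.2 in M5. The groups overlapped, since the vehicle gonad of M5 lay below 3 of the GPI gonads, yet each GPI gonad was lower than the vehicle gonad of its own mouse. The mean went from 3227 ± 460 to 2615.9 ± 410, a log2 fold change of -0.31 (SE 0.090, 95% interval -0.50 to -0.11). The edgeR adjusted p was 0.0249. The call was lost with no replicate block (log2 fold change -0.30, adjusted p = 0.0719), without mouse M2 (-0.27, adjusted p = 0.0773) and without mouse M4 (-0.21, adjusted p = 0.132). Over its 12 alternatives the adjusted p of Tet1 ran from 0.00697 to 0.132.

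Tet2 (Entrez 214133, chr3:133463677-133544390, minus strand) ranged from 2403.6 to 3049.5 normalized counts with vehicle and from 2467.2 to 4159 with GPI. The high GPI value came from M1, and the 4 other GPI gonads lay between 2467.2 and 2737.1, within the vehicle range. Its log2 fold change was 0.06 (SE 0.083, 95% interval -0.11 to 0.24; edgeR adjusted p = 0.642), and without mouse M1 it was -0.048. Tet3 (Entrez 194388, chr6:83362373-83441678, minus strand) held 1970.1 ± 100.5 normalized counts with vehicle and 2077.3 ± 205 with GPI. Its log2 fold change of 0.07 (95% interval -0.08 to 0.23) did not pass either (adjusted p = 0.534). The gene spans of Dnmt1 and Tet3 each overlap a microRNA gene on the same strand. Whether these microRNA genes lie in counted exons was not examined.

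**Figure D4:**
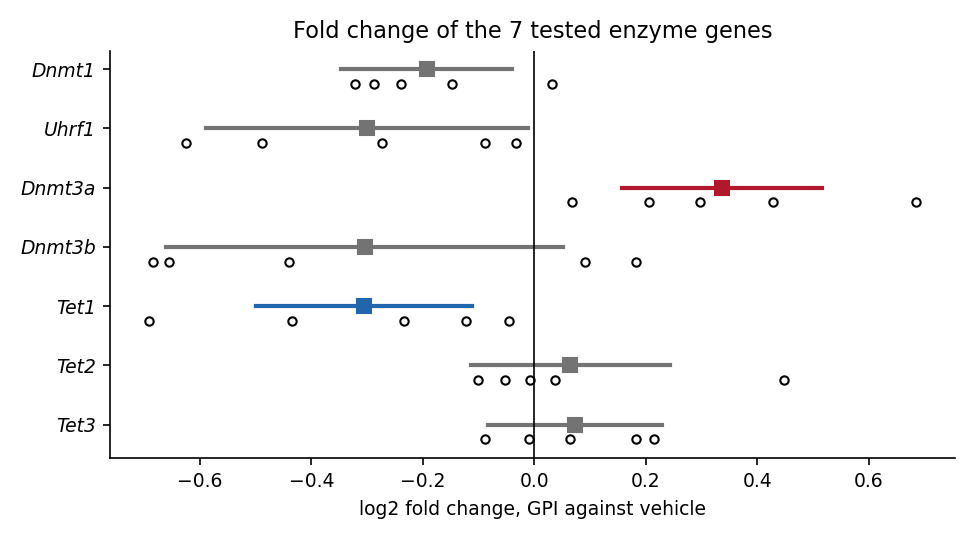
Log2 fold change of GPI against vehicle (horizontal axis) for the 7 tested genes, with squares for the fitted value, bars for its 95% interval and open circles for the 5 mice. Dnmt3a (red) was called higher at 0.34, Tet1 (blue) was called lower at -0.31, and the 5 genes in grey were not called.

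Dnmt3a and Tet1, a writer and an eraser, were then set against each other within each gonad. The ratio of Dnmt3a to Tet1 normalized counts was 1.61, 1.36, 1.93, 1.86 and 2.48 in the vehicle gonads of M1 to M5, and 2.18, 2.96, 2.59, 4.03 and 2.69 in the GPI gonads. A higher ratio with GPI in each mouse follows from the directions of the separate genes; the groups overlapped, since the vehicle gonad of M5 lay above the GPI gonad of M1. The ratio of Dnmt3a to Dnmt1 went from 1.62 ± 0.16 to 2.33 ± 0.19, and its groups did not overlap. M2 and M4 had the widest log2 ratios for Dnmt3a (0.68 and 0.43) as well as for Tet1 (-0.43 and -0.69). These ratios are given as a description, and their difference between groups was not tested.

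Partners of the enzymes were examined in 4 further lists. Their counts of calls stand beside 11.1% called higher and 11.9% called lower over all tested genes. Of 12 methyltransferase partners, 2 were called lower and 10 were not called, with a median log2 fold change of -0.17. The called genes were Dppa3, a germ cell protein that keeps UHRF1 from chromatin, at -5.20 (edgeR adjusted p = 3e-07), and Pclaf, a PCNA-associated protein that overlaps Trip4 on the other strand, at -0.42 (adjusted p = 0.00696). Dppa3 held between 1 and 21 counts in the GPI libraries and passed the filter through its vehicle counts, so that its fold change is not exact. It is also counted among the called germ cell markers. Uhrf2 (log2 fold change -0.16, adjusted p = 0.146), Usp7, a deubiquitinase that binds DNMT1 (-0.18, adjusted p = 0.0903), the chromatin remodeler Hells (0.03, adjusted p = 0.874) and Cdca7 (-0.31, adjusted p = 0.053) did not pass. Under scaling by total counts alone, 5 partners were called lower.

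Of 17 genes that act with or after the TET enzymes, 16 were tested, 3 were called higher and 2 lower, with a median of 0.03. Idh1, which makes the 2-oxoglutarate that TET enzymes use, rose from 1625.9 ± 254 to 3094 ± 549 with GPI in all 5 mice (log2 fold change 0.92, edgeR adjusted p = 2.35e-06). The stress-response genes Gadd45a (0.60), which overlaps another gene on the other strand, and Gadd45g (0.84) also rose, but the edgeR adjusted p of Gadd45a was 0.0861 without mouse M1 and 0.108 without M3, and that of Gadd45g was 0.0717 without M4. The cytidine deaminase Apobec1 (-1.35) and the glycosylase Mbd4 (-0.58) fell. Ogt, Tdg and Smug1 were not called (log2 fold changes -0.07, 0.01 and 0.01). Tdg removes the oxidized bases that TET enzymes make, and the gene overlaps Glt8d2 on the other strand. Its level was 288 ± 62.3 with vehicle and 287 ± 34.3 with GPI.

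The 7 readers of methylated CpG gave no call in either direction with edgeR (0 higher, 0 lower; 0 at an unadjusted p under 0.05), nor with DESeq2 or limma-voom (0 each). Their median log2 fold change was -0.04, and Zbtb4 was at -0.19 and Mbd2 at -0.05. In the supply of the methyl donor S-adenosylmethionine, 8 of 12 genes were tested, 3 were called higher and 5 were not called, with a median of 0.24. Among those called were Ahcy, which clears the product of methyl transfer (log2 fold change 0.50, edgeR adjusted p = 0.0178), and Mat2a, which makes the donor and overlaps another gene on the other strand (0.23, adjusted p = 0.0249). Both were higher in each of the 5 mice. The count of genes called was 1 without mouse M2 or M4 and 0 without M3. Mat2b (0.24, adjusted p = 0.0596) did not pass, and Mat1a and Bhmt, known from liver, were at 0 in all libraries.

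Germ-line genes known to be silenced by promoter methylation in somatic cells were also read. Of 14, 11 were tested, 7 were called lower and 4 were not called, with a median of -2.72. Dazl, Ddx4, Sycp3, Mael and Tex19.1 are also among the germ cell markers, so that all of the called genes but Sycp1, Hormad1 and Slc25a31 were counted there already. Sycp1, of the synaptonemal complex, went from 259 ± 90.6 to 7.16 ± 7.81 normalized counts (log2 fold change -5.16, edgeR adjusted p = 6.82e-06). Its GPI libraries held between 0 and 18 counts and it passed the filter through its vehicle counts, so that this fold change is not exact. Of the shared genes, Tex19.1 was fitted at -4.78 and Mael at -5.17. They held at most 5 and 2 counts in any GPI library, so that these fold changes are not exact. With at least 10 counts required in every library, fewer genes of the list were tested and 1 was called lower. Taf7l (-0.15) and Brdt (-0.36) did not pass, and no gene of the list was called higher (0 at an unadjusted p under 0.05 with edgeR; 0 with DESeq2 and limma-voom). Their part in the enzymes' changes was not tested.

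**Figure D5:**
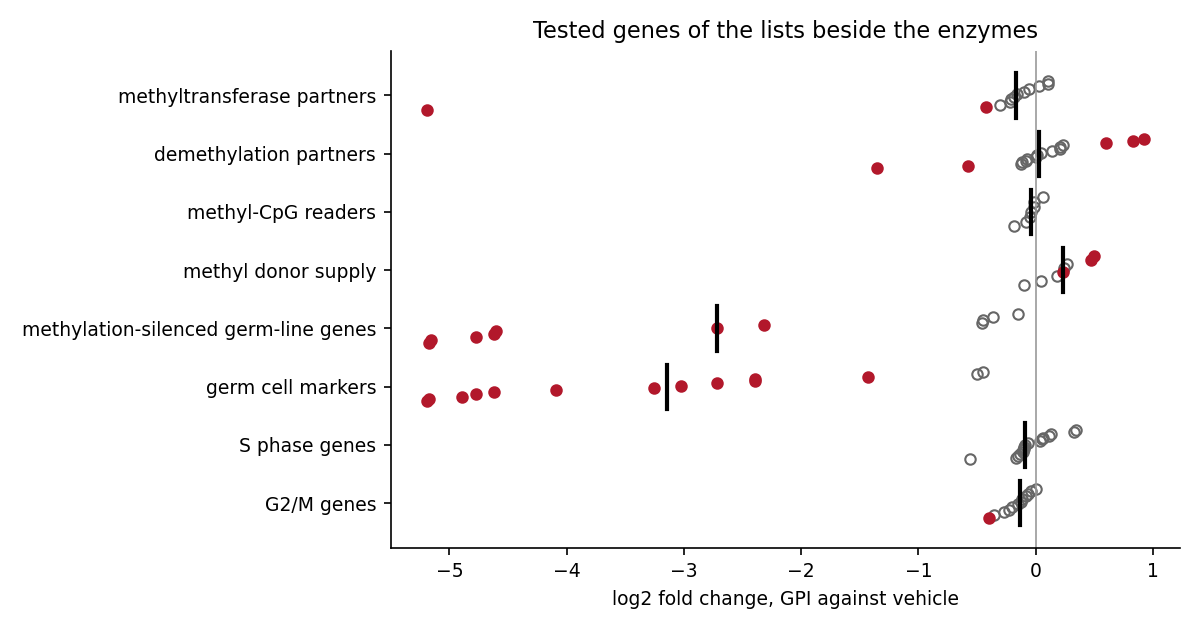
Log2 fold change of GPI against vehicle (horizontal axis) for each tested gene of 8 lists, filled where called, with a black bar at each list's median. The called germ cell markers (12 of 14 tested) and methylation-silenced germ-line genes (7 of 11 tested) lie left of 0, with list medians of -3.14 and -2.72. Their other tested genes lie between -0.50 and -0.15. The readers and S phase genes had no gene called, with list medians of -0.04 and -0.09. Single S phase genes ranged from -0.56 to 0.34.

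Markers of several cell types in the gonad moved with the treatment, beside 11.1% called higher and 11.9% called lower over all tested genes. The 6 endothelial markers were all called lower (median -3.28). Their sum, led by Cdh5 with vehicle and by Kdr with GPI, was 7082.3, 7423.4, 6633, 7759.5 and 6835.5 normalized counts in the vehicle gonads and 772, 937, 628, 517 and 649 in the GPI gonads. Of the 8 macrophage markers, 7 were tested and 6 were called lower (median -2.02), and their sum, led by Ptprc with vehicle and by Adgre1, which was not called, with GPI, went from 540 ± 108 to 167 ± 51.0. The 4 erythroid markers were called lower as well (median -1.29), with Hbb-y the most abundant and a sum of 2230.9 ± 650 with vehicle and 1082.7 ± 480 with GPI.

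The called Leydig and Sertoli markers went the opposite way. Of 5 fetal Leydig markers, 4 were tested and all 4 were called higher (median 2.32). Their sum, led by Hsd3b1 with vehicle and by Cyp11a1 with GPI, was 1280, 2700.4, 3979.8, 1991.2 and 5303.4 with vehicle and 9634.3, 10119, 15749, 18089 and 12928 with GPI. Of 10 Sertoli markers, 7 were called higher and 3 were not called (median 0.57). Those not called were Amh (0.08), Cldn11 (0.21) and Fgf9 (-0.33), the last being lower in 4 of 5 mice. The Sertoli sum, led by Aard, went from 4757.8 ± 854 to 7159.5 ± 1916.5. Sox9, which directs Sertoli cell fate, rose by 0.59 on the log2 scale. The interstitial list had 1 gene called higher (Pdgfra, 0.33) and 2 lower (among them Tcf21, -0.30) of 5, the latter count being 0 without mouse M2, M3 or M4, with a sum of 13426 ± 1146.7 with vehicle and 13606 ± 1096 with GPI. Of 4 pre-granulosa markers, 1 (Wnt4, -0.78) was called lower, with a sum of 1590.8 ± 167 and 1097.9 ± 195. The mesonephros list, led by Pax8, had 1 of 4 genes tested (Pax8, not called), and its sum was highest in the vehicle gonads of M1 (691) and M3 (307). The GPI gonad of M4 held the highest Dnmt3a and the lowest Tet1 of the 10 libraries, and also the lowest germ cell sum and the highest Leydig and Sertoli sums. The GPI gonad of M2 had nearly as much Dnmt3a (8013.9), with the germ cell sum (487) next to the highest and the Leydig sum (10119) next to the lowest of the GPI gonads. The part of any cell type in the enzymes' changes was not tested.

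The genes most like Dnmt3a over the 10 libraries were Tmem135, Rap2c, Specc1l, Tm7sf3 and Mcrip2, with Pearson correlations of log2 normalized counts from 0.96 to 0.97. Of these, 4 were called higher and Specc1l was not called. Those most like Dnmt1 were Acer2, Lpar4, Aqp1, Itga1 and Lin9 (0.93 to 0.94), the first 4 of which were called lower. Those most like Uhrf1 were Ccnb1, a cyclin of mitosis, at 0.95, then Slc25a21, Oip5, Emid1 and Sox13 (0.91 to 0.93). These correlations are over 5 vehicle and 5 GPI libraries together, and so share the difference between the groups.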

How the data were processed

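RNA was measured in 10 cultured testes, 2 from each of 5 embryos. The authors mapped read pairs of unstranded libraries to mm10 with STAR 2.5, assigned them to RefSeq genes with featureCounts (Subread 1.5.0-p1), ignoring strand, and deposited the counts without normalization. From these counts, edgeR 4.0.16 (R 4.3.3) was run with TMM scaling, filterByExpr (minimum count 10, minimum total 15), a design of mouse and treatment, the quasi-likelihood test and Benjamini-Hochberg adjustment over all tested genes at 0.05. The pairing comes from the labels, which give both gonads of an animal the same number; deviations from the group mean correlated by 0.06 on average within a mouse (from -0.04 to 0.16) and by -0.015 between mice, and with no replicate block 3108 genes were called. Within a group every pair of libraries differed by more than counting noise (chi-square over its degrees of freedom from 6.42 to 27.8).

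The members and the 16 other lists (158 genes) were chosen with earlier results of these data known. Genes named one by one are the 8 members, and from each other list the first 3, the 3 with the smallest p and those that complete a count of 5 or fewer; other list genes named were chosen after their values were seen, and some genes of the rule are not reported here. Differences from the S phase genes used log2 normalized counts with a prior count of 2. Exon lengths joined the exons of GENCODE transcripts matched to RefSeq mRNAs. Promoter sequences came from RefSeq (GRCm38.p6), which matched 8 of 8 members. Counts of amplified libraries are not independent molecules, so counting intervals and floors cover counting error only. Alternatives were DESeq2 1.42.0, limma-voom (limma 3.58.1), a fit with no replicate block, scaling by DESeq2 size factors or by total counts alone, filtering of no gene or of any gene under 10 counts in some library, and each mouse left out; for the S phase comparisons also prior counts of 0.5 and 5 and the median over genes. The planned comparisons of Dnmt3l with the other members and with the germ cell markers were not made, since its counts were at the floor. Figures used matplotlib 3.10.9.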

Additional observations from a re-analysis of the deposited data

Results flagged for a closer look

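Among 48 sets of 5 values, 3 held a value set apart from the others, by a gap to its nearest neighbour of more than 0.71 of the whole range; chance gives about 1 in 20. Dnmt1 in the GPI gonad of M2 was at 3574.4 normalized counts, with the 4 other GPI gonads between 2986.7 and 3099.1. Tet2 in the GPI gonad of M1 was at 4159, with the others between 2467.2 and 2737.1. The summed demethylation partners in the GPI gonad of M4 were at 13523 normalized counts, with the others between 12191 and 12516.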

How the results depend on the processing

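Dnmt3a was called higher under all 12 alternatives, with log2 fold changes from 0.25 to 0.40 and adjusted p from 0.00128 to 0.0469. Dnmt3b, Uhrf1 and Tet3 kept their direction and were called under none of the 12. Tet2, which was not called, turned to -0.048 without mouse M1 and ranged up to 0.11 with another mouse left out. Of 56 called genes in the other lists, 45 kept direction and call wherever they were tested, 11 lost the call under some alternative and 0 reversed. The number of members called lower was 2 with total counts only, and from 0 (without M4) to 1 with a mouse left out. With total counts only, 5 methyltransferase partners, 1 S phase gene and 2 G2/M genes were called lower. With no replicate block, 1 S phase gene was called lower, and 3108 genes were called, 2922 of them shared. Leaving out the block moved no other count by over 1.5 times, and among the members it changed the calls of Dnmt1 and Tet1. For the differences of Dnmt1 (-0.16) and Uhrf1 (-0.27) from the S phase genes, an unpaired permutation over all 10 libraries replaced the sign-flip test. Its exact permutation p were 0.00794, the smallest it can give, and 0.0159. It treats the 2 gonads of an embryo as independent, so these p do not replace the paired ones. With at least 10 counts in every library, 3 germ cell markers, 1 methylation-silenced germ-line gene and 3 macrophage markers were called lower, since fewer of these genes were then tested. With a mouse left out, the genes called higher ranged from 969 (without M3) to 1430 and were 1024 without M4, the methyl donor genes called higher from 0 to 3, and the interstitial markers called lower from 0 to 3. For the other changes the cause was not tested. The comparisons of Dnmt3l could not be run, and depth limits Dnmt3l and the germ cell markers left untested.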
